A study of Mus musculus with 4 samples.

Results

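The DEAD and DEAH box RNA helicases were taken as the protein-coding genes whose mouse symbol is Ddx or Dhx followed directly by a digit. Among the 21896 protein-coding genes that RefSeq lists on mm10 (GRCm38.p6), 53 met this rule, 37 Ddx and 16 Dhx genes. Of the 97699 ATAC-seq peaks in the authors' deposited table, 245 had their centre within 1 kb of an end of such a gene, inside it, or nearer to one of its ends than to any other protein-coding gene. A peak is a stretch of open DNA that a transposase could cut, and its level is its normalised read count.

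The libraries came from MC38/gp100, a mouse colon adenocarcinoma cell line that carries the melanocyte antigen gp100, grown in RPMI medium with serum. The 2 libraries of one group were made from cells kept for 5 days in the solvent DMSO. The 2 libraries of the other came from cells kept as long in 1 µM GSK3368712, which blocks the type I arginine methyltransferases. The comparison asks where chromatin accessibility differs under the inhibitor. The table holds 1 mean per group for each peak and no value per library, so it gives no spread within a group, and read depth per library is unknown. Nothing in the labels says whether the paired libraries were separate cultures, and p-values thus rest on a spread between libraries that may be only technical.

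DEAD and DEAH box proteins are ATPases named after a short amino acid motif in the ATP-binding core. DEAD box proteins pry short duplexes apart or clamp RNA, and DEAH box proteins pull on a strand to take RNA-protein complexes apart. Together they drive splicing, ribosome assembly, mRNA export, translation and the sensing of viral RNA. Type I arginine methyltransferases place asymmetric dimethyl marks on many RNA-binding proteins, often in repeats of arginine and glycine such as those at one end of the Dhx9 protein. That reaction concerns the proteins, whereas the values here concern the chromatin at their genes.

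The starts of the helicase genes were mostly open and rich in CpG. RefSeq promoter windows of GRCm38.p6 matched 47 of the 53 genes. A peak lay over a start of 43 of these 47, or 91.5%, whereas 51.5% of all 17491 genes with a window had one. The genes with a window and no peak over a start were Ddx3y, Ddx4, Ddx25 and Ddx43, and the last 3 of these are all the genes of the germ-line list. In the 250 bases before the start, the median ratio of observed to expected CpG was 0.878 for the helicase genes and 0.537 for all genes. Among genes with a peak over a start the medians were 0.868 and 0.751. For a gene with several starts the most upstream window was used, and the peak may lie over another start, as at Ddx19b.

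The sequences of 6 such windows are given as examples. Ddx58 and Ddx60 encode an RNA sensor and an antiviral factor, Ddx51 and Dhx37 belong to ribosome assembly and had a peak that changed nearby, Ddx54 had one of the strongest open starts, and Ddx4 had no peak at its start. Each runs 5′ to 3′ along the gene's own strand and ends at the base before the start. Capitals mark every match to 9 short motifs searched on both strands, whose letters are given after the sequences.
Ddx58, chr4:40239826-40240075, minus strand: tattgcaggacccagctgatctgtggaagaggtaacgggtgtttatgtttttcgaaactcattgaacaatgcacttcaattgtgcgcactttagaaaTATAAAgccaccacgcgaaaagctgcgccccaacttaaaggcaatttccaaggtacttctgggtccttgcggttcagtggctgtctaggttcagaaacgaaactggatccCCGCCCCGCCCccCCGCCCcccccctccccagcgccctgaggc
Ddx60, chr8:61927837-61928086, plus strand: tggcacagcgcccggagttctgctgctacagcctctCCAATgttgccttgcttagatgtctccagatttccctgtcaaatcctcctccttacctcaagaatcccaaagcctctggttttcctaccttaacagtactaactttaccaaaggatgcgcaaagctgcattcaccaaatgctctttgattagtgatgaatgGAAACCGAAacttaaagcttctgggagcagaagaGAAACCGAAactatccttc
Ddx51, chr5:110653201-110653450, plus strand: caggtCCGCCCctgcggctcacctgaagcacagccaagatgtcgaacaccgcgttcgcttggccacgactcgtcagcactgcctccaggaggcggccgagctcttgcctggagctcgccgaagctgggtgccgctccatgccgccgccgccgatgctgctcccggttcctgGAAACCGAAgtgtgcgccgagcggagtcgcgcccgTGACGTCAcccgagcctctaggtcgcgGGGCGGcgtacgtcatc
Dhx37, chr5:125434049-125434298, minus strand: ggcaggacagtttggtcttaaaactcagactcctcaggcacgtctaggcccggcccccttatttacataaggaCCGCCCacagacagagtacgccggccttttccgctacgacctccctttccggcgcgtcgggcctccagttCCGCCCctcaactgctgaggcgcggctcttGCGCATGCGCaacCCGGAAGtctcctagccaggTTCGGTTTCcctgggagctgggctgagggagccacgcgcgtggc
Ddx54, chr5:120612880-120613129, plus strand: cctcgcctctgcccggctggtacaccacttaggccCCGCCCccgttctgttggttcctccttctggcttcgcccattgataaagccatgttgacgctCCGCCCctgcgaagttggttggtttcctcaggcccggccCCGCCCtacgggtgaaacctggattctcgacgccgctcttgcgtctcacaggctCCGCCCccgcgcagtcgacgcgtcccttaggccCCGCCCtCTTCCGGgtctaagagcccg
Ddx4, chr13:112652311-112652560, minus strand: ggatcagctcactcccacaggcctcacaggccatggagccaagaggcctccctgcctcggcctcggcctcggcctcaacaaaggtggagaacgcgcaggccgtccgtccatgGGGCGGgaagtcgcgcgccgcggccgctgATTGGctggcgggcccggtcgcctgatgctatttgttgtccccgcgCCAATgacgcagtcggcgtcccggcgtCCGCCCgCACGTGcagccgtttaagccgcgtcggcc

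The motif for ETS factors, CCGGAAG, was in 14 of the 47 helicase windows, or 29.8%. It was in 9.14% of all windows, and among genes with a peak over a start in 32.6% of helicase windows and 15.5% of all. The NRF1 motif GCATGCGC was in 5 helicase windows, or 10.6%, beside 2.97% of all, and with a peak over a start in 11.6% and 4.90%. In the Dhx37 window 2 overlapping NRF1 matches began 77 and 75 bases before the start, and the ETS match began 64 bases before it. The cyclic AMP response element TGACGTCA was in 4 helicase windows, or 8.51%, beside 1.98% of all windows. One of these is Ddx51, whose match began 44 bases before the start.

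The interferon response motif GAAANNGAA was in 6 helicase windows, 12.8%, beside 6.92% of all windows. Ddx60 held it at 53 and again at 19 bases before the start, and the Ddx58 window held none. Ddx58 was instead the 1 helicase window with the TATA box letters TATAAA, found in 12.4% of all windows, but its match began 153 bases before the start. Among genes with a peak over a start these letters were in 2.33% of helicase windows and 5.90% of all. The GC box GGGCGG was in 29 helicase windows, or 61.7%. All windows held it in 42.7%, while among genes with a peak over a start the shares were 60.5% for helicases and 61.1% for all, and 2 of the 3 GC boxes of Ddx58 share a base. The CCAAT box was in 21, or 44.7%, beside 36.5% of all, and the E-box CACGTG in 4, or 8.51%, beside 6.65%. Among genes with a peak over a start the CCAAT shares were 41.9% and 38.3%, and for the E-box the order turned, with 6.98% and 8.64%. The YY1 motif ATGGCGGC was in none of the 47, beside 1.2% of all windows. A match describes letters in the window and not binding.

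Several starts face another gene. For 8 of the 47 helicase genes, or 17.0%, a start on the other strand lay upstream within 1 kb, beside 8.04% of all genes. The pairs with the shortest gaps were Ddx31 and Gtf3c4 at 46 bp, Ddx5 and Cep95 at 67 bp, Ddx51 and Noc4l at 69 bp, and Ddx25 and Pus3 at 90 bp. The peak at such an end belongs to both genes. Among the strongest peaks at gene ends, 1 per gene, 12 of 46 helicase peaks (26.1%) also lay within 1 kb of another gene's end, close to the 25.5% of all genes.

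Chromatin at the ends of the helicase genes showed no called change. Peaks were called where the adjusted p in the authors' deposited table, from DESeq2 run in DiffBind, was under 0.05, and they count as tested where it was under 1. By that rule none of 56 tested peaks within 1 kb of an end of a helicase gene was called, beside 1.79% of the 12689 gene-end peaks in the table, and 3 of the 56 had an unadjusted p under 0.05. With the strongest end peak of each gene, 0 of 46 genes were called, beside 1.54% of 11688 genes. Beside shares this low, no call among so few peaks says little about the helicase genes. At an unadjusted p under 0.05 there were 2 of these 46, at Dhx58 and Ddx54, both with lower values under the inhibitor. No share of all gene-end peaks at that unadjusted p is given here, so nothing was read from these counts. The median log2 fold change, inhibitor minus DMSO, was -0.04 for the helicase genes and -0.03 for all genes. On 2 other scales, with folds shifted to equal summed reads or to a median of 0, the helicase median was 0.04 and 0.03, so no direction was read from it. In bulk chromatin, a lower level in every cell and a loss from some of the cells cannot be told apart.

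The derived intervals of the end peaks were narrow for most genes. An interval of 95% was derived for each peak from the authors' deposited table. For the 14 genes with a fold of at least 0.1 it used the peak's own p-value, and for the other 32 a standard error taken from peaks of like level. It lay within 0.5 log2 of 0 for 45 of the 46 genes and within 0.3 for 38. With each peak's own p-value, which gives an interval for the 45 genes with a fold other than 0, the numbers were 44 and 34. These intervals rest on 2 libraries per group, whose spread may be only technical, so they do not bound a change between cultures. They also leave out the choice of scale, whose offsets were -0.0794 log2 for equal summed reads and -0.07 for the median. The folds themselves ran from -0.34 at Dhx58 to 0.19 at Ddx58, and 45 of 46 were within 0.2 of 0. The median level of these peaks was 993 normalised reads, against 820 for all genes, and their median widths were 1027 and 999 bp.

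**Figure D1:**
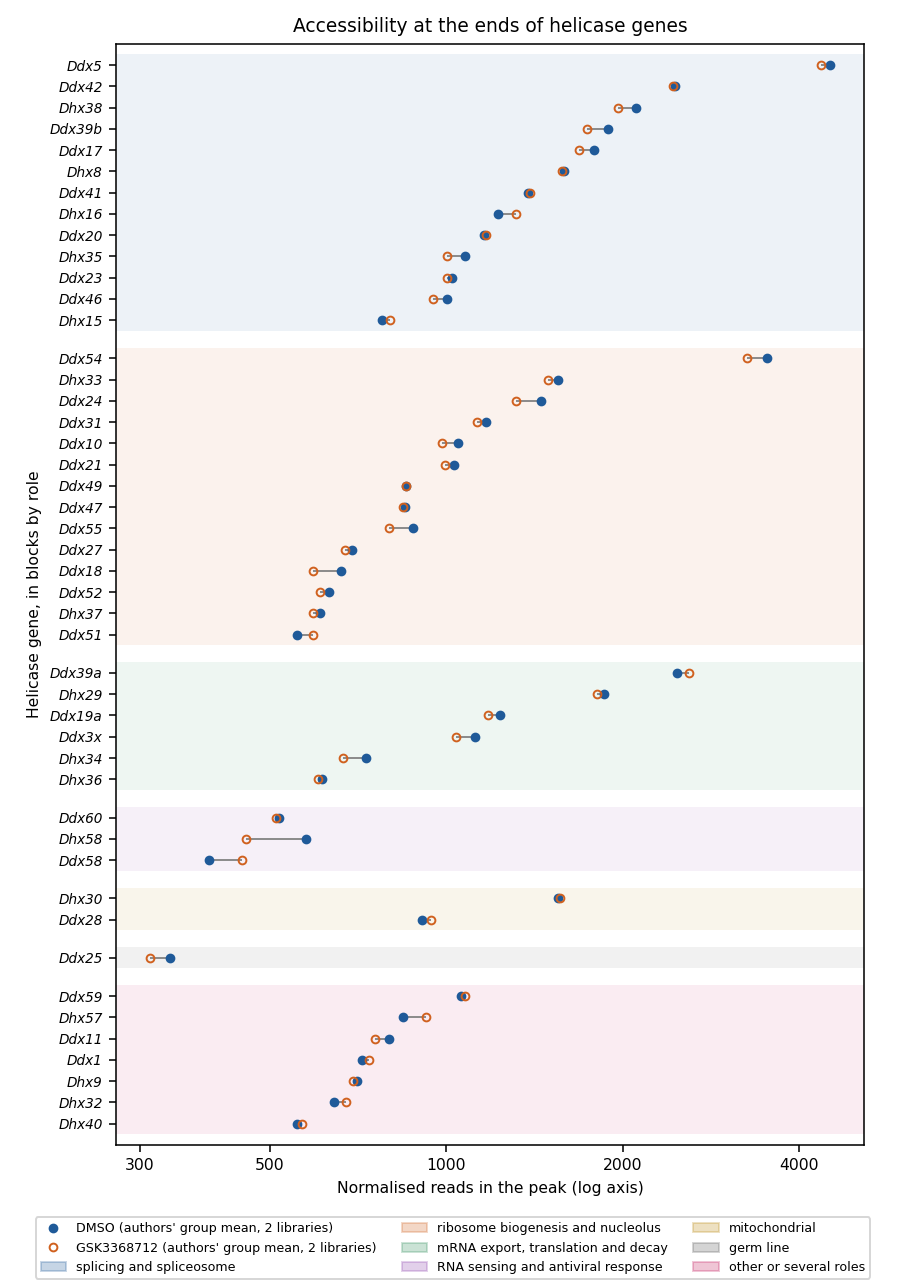
Normalised reads (log axis) in the strongest tested peak within 1 kb of an end of 46 helicase genes, in blocks by role; filled points are the authors' DMSO means and open points their inhibitor means, each over 2 libraries. Levels run from 338 reads in DMSO at Ddx25 to 4513 at Ddx5, the pairs of points nearly coincide for most genes, and the widest gap is at Dhx58.

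Among the helicases of the splicing machinery, all 13 genes had a tested peak at an end. Their median log2 fold change there was -0.03 in the authors' deposited table, and the range of the list was -0.12 to 0.1. Ddx5, a helicase and transcriptional coregulator that acts together with its close relative Ddx17, had the highest end level of all helicases, with authors' means of 4513 reads in DMSO and 4360 under the inhibitor. Per kilobase of peak it stood at 1985 reads, below 2301 at Dhx38, which drives a late remodelling of the spliceosome. Dhx38 had 2106 reads in DMSO and 1965 under the inhibitor, and the authors' deposited table gave a log2 difference of -0.10 and an adjusted p of 0.516. Ddx42, found with the branch-site factor SF3B, stood at 2452 and 2435 reads. Dhx16, which activates the spliceosome before the first step, stood at 1226 and 1314 reads, and the authors' deposited table gave a log2 difference of 0.10 and an adjusted p of 0.64. None of these differences passed the threshold. The end peaks of Ddx5, Dhx38 and Ddx42 also lie within 1 kb of an end of Cep95, Txnl4b and Ccdc47, in that order. That of Ddx5 is nearer to Cep95, at 268 bp, than to the Ddx5 end, at 813 bp. These levels are thus not the helicases' alone.

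At the other end of Ddx5 the result depended on the scale. The peak there lies on chromosome 11 from 106778888 to 106780266, 778 bp beyond the Ddx5 end and 40 bp from an end of Polg2, which encodes a subunit of the mitochondrial DNA polymerase. Its means in the authors' deposited table were 3591 reads in DMSO and 3984 under the inhibitor, a log2 difference of 0.15 (derived SE 0.06) with an adjusted p of 0.131. On the scale of equal summed reads its recomputed adjusted p was 0.00704, and with folds centred on the median it was 0.0105. It would be called higher on both. Peaks inside Ddx5 and 6.73 kb from it had 0.27 and 0.28 in the authors' deposited table, at adjusted p of 0.384 and 0.428, and a weak one 13.1 kb away had -0.03.

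Among the 16 helicases of ribosome assembly and the nucleolus, 14 had a tested end peak, and their median log2 fold change was -0.05 in the authors' deposited table. By the deposited values 12 of the 14 lay below 0, but 5 did with folds shifted to equal sums or centred. Ddx54, a nucleolar helicase, had 3517 reads in DMSO and 3259 under the inhibitor, and the authors' deposited table gave a log2 difference of -0.11 and an adjusted p of 0.302. The Ddx54 peak also lies within 1 kb of an end of Rita1. Ddx18 had the lowest fold of the list, with 662 and 592 reads, and -0.16 at an adjusted p of 0.533 by the authors' deposited table. Ddx55 and Ddx24, which act on the large ribosomal subunit, had -0.14 each there, with 879 and 798 reads at Ddx55 and 1448 and 1314 at Ddx24, and neither was called. At the other extreme Ddx51, whose yeast counterpart is needed for large-subunit rRNA processing, had 556 and 592 reads. Its log2 value was 0.09 at an adjusted p of 0.823 by the authors' deposited table. The nucleolar helicases with no peak within 1 kb of an end, Ddx50 and Ddx56, each had a peak over a start of the promoter table that lies inside the longest gene model. It stood at 1758 and 1833 reads for Ddx50 and at 1370 and 1287 for Ddx56, by the authors' means, and neither was called.

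Helicases of mRNA export, translation and decay had a median of -0.055 over 6 tested end peaks in the authors' deposited table, with 0.0244 and 0.015 on the 2 other scales. Ddx39a, an mRNA export helicase, had 2469 reads in DMSO and 2592 under the inhibitor. In the authors' deposited table its log2 difference was 0.07 at an adjusted p of 0.868. The peak was the densest of the 46, at 2695 reads per kilobase. Dhx34, which acts in nonsense-mediated decay, had 729 and 666 reads, for which the authors' deposited table has a log2 difference of -0.13 at an adjusted p of 0.622. Ddx6, a core protein of mRNA decay and of P-bodies, has an end peak of only 27.3 and 30.5 reads, too low to be tested. A strong peak just inside its gene model stood at 1370 reads in DMSO and 1218 under the inhibitor, and its log2 difference in the authors' deposited table was -0.17 at an adjusted p of 0.318. The Ddx19b gene, close to its twin Ddx19a, likewise has its start peak inside the model, at 523 and 474 reads with an adjusted p of 0.673 there. That peak lies 104 bp from an end of Aars and 4.08 kb from the nearer end of Ddx19b, so it is not Ddx19b's alone. Ddx3y, the Y-linked partner of the translation helicase Ddx3x, had no peak at all, and the nearest of the 57 peaks on chromosome Y lay 1588 kb away.

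Taking the strongest end peak of each gene, the 3 RNA sensing helicases held both the lowest and the highest fold of the family. Their median end level was low, 516 reads against 993 for the family, and folds spread more at low levels. Over all tested peaks the 5th to 95th percentiles were -0.45 to 0.19 at log2 levels of 9 to 9.5, where Dhx58 lies. They were -0.54 to 0.22 at 8.5 to 9, where Ddx58 lies, and -0.23 to 0.1 at 10.5 to 11. Both folds thus fell within the usual spread for their level. Weaker end peaks reached further, to -0.64 at Ddx24 and 0.34 at Ddx25 in the authors' deposited table, and neither was called. Dhx58 encodes LGP2, which lacks a signalling domain and tunes the other sensors. Its end peak, on chromosome 11 from 100704001 to 100704591, had means of 576 reads in DMSO and 455 under the inhibitor in the authors' deposited table. The log2 difference was -0.34, with a derived SE of 0.119 and a 95% interval from -0.57 to -0.11. The adjusted p was 0.061 in the authors' deposited table, so the peak was not called. With peaks under the median level left out of the adjustment it was 0.043 and the peak was called. The same peak lies within 1 kb of an end of Kat2a, which encodes an acetyltransferase, so it is not Dhx58's alone. The 2 further tested peaks of Dhx58 had -0.06 and -0.03 in the authors' deposited table, at 217 against 208 and 1105 against 1082 reads.

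Ddx58, the gene of RIG-I, the sensor of viral RNA with a free triphosphate end, had 393 reads in DMSO and 449 under the inhibitor at its start. The log2 difference was 0.19 with an interval from -0.06 to 0.44, and the authors' deposited table gave an adjusted p of 0.528. At Ddx60, an interferon-induced helicase, the means were 519 and 512 reads, a difference of -0.02 in the same authors' deposited table. The sensors thus had 1 peak with the inhibitor mean well below DMSO, 1 above and 1 level, and by the authors' call none changed.

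**Figure D2:**
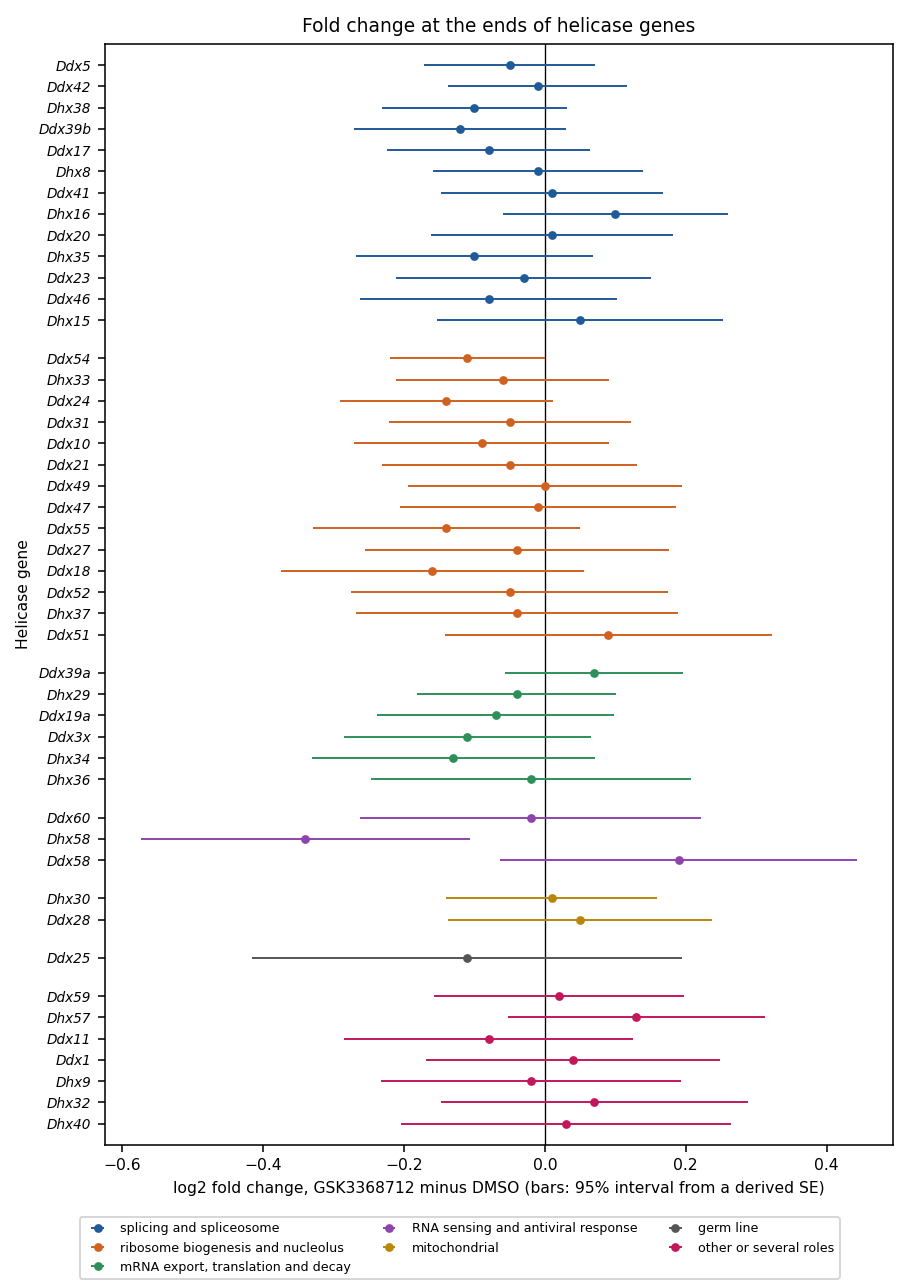
Log2 fold change, GSK3368712 minus DMSO, in the strongest tested end peak of 46 helicase genes, in the order of the plot of levels; points are the authors' folds, bars a derived 95% interval (from the peak's own p-value for 14 genes, from the standard error of peaks of like level for 32), and colours the role. The intervals of Dhx58 (-0.57 to -0.11) and Ddx54 (up to -0.000192) are the ones that stay below 0 before adjustment, and neither peak was called.

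At the remaining genes no end peak was called. The mitochondrial helicases Ddx28 and Dhx30 had 0.05 and 0.01 in the authors' deposited table. Of the 7 genes with other or several roles, Dhx57 had the highest end fold, 0.13 at an adjusted p of 0.562 by the authors' deposited table, with 843 reads in DMSO and 923 under the inhibitor. The Dhx57 peak is not that gene's alone, since it lies 99 bp from an end of Morn2 and 372 bp from the Dhx57 end. Dhx32, tied with Ddx39a at 0.07 in the authors' deposited table, had 644 and 676 reads. Dhx9, named here for its arginine and glycine repeats, had 704 and 695 reads. Of the germ-line helicases, Ddx4, the germ cell marker known as Vasa, had no end peak and 1 tested peak inside, at 30.9 and 41.9 reads. Ddx43 had a single peak of 20.4 and 15.5 reads, too low for a test. The strongest end peak of Ddx25 lies 982 bp beyond its end and also within 1 kb of Pus3, and stood at 338 and 313 reads, a difference of -0.11 by the authors' deposited table. A weaker peak 283 bp from the other end of Ddx25 went the other way, with 162 and 205 reads, and the authors' deposited table gave 0.34 at an adjusted p of 0.389.

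Away from gene ends, 6 helicase genes had a called peak each, 5 lower and 1 higher under the inhibitor. Of 197 tested helicase peaks, 2.54% were lower and 0.508% higher, beside 6.09% and 0.492% of all 74791 tested peaks. At an unadjusted p under 0.05 the lower share was 7.11% against 14.3% of all, and the higher share 1.52% against 2.18%. The median log2 fold change over all helicase peaks was -0.03 in the authors' deposited table, against -0.07 over all tested peaks, and became 0.0494 and 0.04 on the 2 other scales. The median level was 184 reads for helicase peaks and 132 for all tested peaks. At least 1 called peak was found for 6 of the 51 genes with a tested peak (11.8%), beside 19.9% of all 16811 genes. The median number of tested peaks per gene was 3 for both.

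By role, the lower peaks belonged to 3 genes of ribosome assembly (3 of 48 tested peaks, 6.25%), 1 of splicing (1 of 50, 2%) and 1 of the mRNA list (1 of 33, 3.03%). Of all tested peaks 6.09% were lower, so the share in ribosome assembly was near that of the whole. The higher peak was 1 of 50 (2%) in the list of other or several roles, beside 0.492% of all. No peak was called among the 6 of the RNA sensors, the 6 of the mitochondrial helicases and the 4 of the germ-line helicases, where 1, 0 and 0 had an unadjusted p under 0.05 by the authors' DESeq2 values. Of all tested peaks 6.59% were called in either direction, so no call among so few peaks says little.

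Split by position, few peaks were called in gene bodies. Of 64 tested helicase peaks inside a protein-coding gene, a neighbouring gene included, and away from gene ends, 1 was called, or 1.56%, beside 7.15% of all 33162 such peaks. Their median log2 fold change was 0.025 in the authors' deposited table, against -0.09 for all. Of 75 intergenic helicase peaks 5 were called, or 6.67%, near the 8.04% of all 28940. Their median of -0.05 in the authors' deposited table compares with -0.10 for all. Whether the shares of helicase peaks and other peaks differ beyond chance was not tested.

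**Figure D3:**
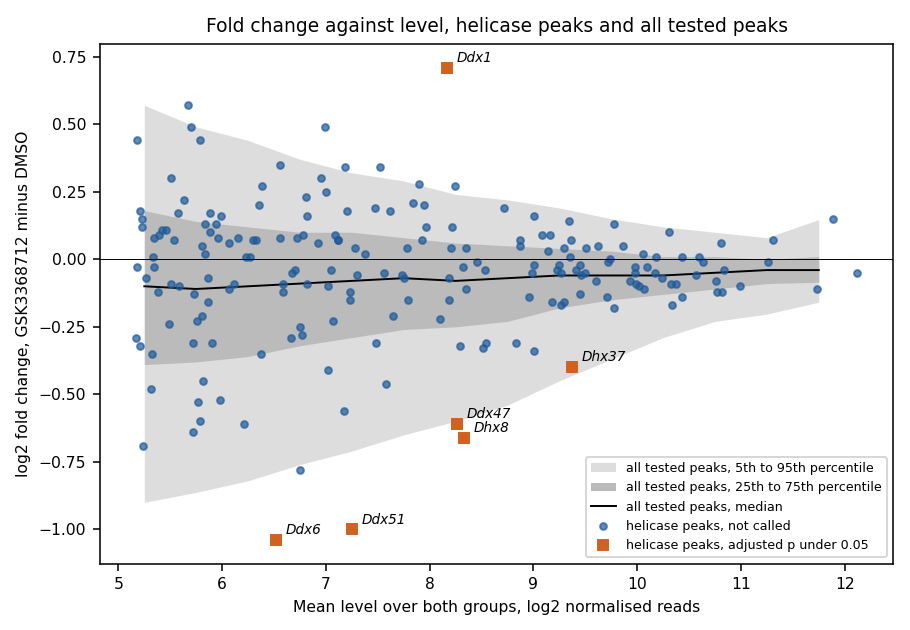
Log2 fold change, GSK3368712 minus DMSO, against mean log2 level for the 197 tested helicase peaks; grey bands and the line give the percentiles and median of all tested peaks at that level, and squares mark adjusted p under 0.05 in the authors' deposited table. The 6 called peaks lie between the lowest and highest levels, with Ddx1 alone above 0, and the strongest peaks lie near 0.

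The called peak inside a helicase gene was that of Ddx51. It lies on chromosome 5 from 110659433 to 110660282, 3.16 kb from the nearer end of the gene. Its mean fell from 202 to 101 reads, and the authors' deposited table gave a log2 fold change of -1.0 (derived SE 0.21) at an adjusted p of 0.000241. The start peak of the same gene, whose window is printed above, stood at 0.09. The derived interval of that start peak ran from -0.14 to 0.32, so its sign is not settled, and the peak lies 5 bp from an end of Noc4l. Only the peak within the gene was called.

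The deepest loss was assigned to Ddx6. That peak lies 35.1 kb from the gene on chromosome 9 from 44567701 to 44568091 and fell from 124 to 60.1 reads. For it the authors' deposited table has a log2 fold change of -1.04 (SE 0.27) at an adjusted p of 0.00506. A long noncoding RNA gene, LOC108167647, lies nearer, at 5.97 kb. For Dhx8, a helicase that frees spliced mRNA from the spliceosome, a peak 32.3 kb away on chromosome 11 from 101700142 to 101701092 fell from 393 to 249 reads. Its log2 fold change was -0.66 (SE 0.15), and the authors' deposited table gave an adjusted p of 0.00037. The next protein-coding end, of Arl4d, is 32.8 kb from it, nearly as close, and the noncoding gene Gm39391 is 3.04 kb away. A second intergenic peak 12.8 kb from Dhx8 stood at 221 and 161 reads, a difference of -0.46, and the authors' deposited table gave an adjusted p of 0.126. The Dhx8 start itself stood at 1585 and 1574 reads.

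Ddx47 and Dhx37, both of ribosome assembly, had lower peaks within 6 kb of a gene end. The Ddx47 peak, 5.72 kb from the gene on chromosome 6 from 135029217 to 135029767, fell from 370 to 242 reads. The fold change on the log2 scale in the authors' deposited table was -0.61 (SE 0.16), at an adjusted p of 0.0051. A neighbour 2.82 kb from the gene stood at 505 and 407 reads, and the authors' deposited table gave an adjusted p of 0.156. The Dhx37 peak, 4.36 kb from the gene on chromosome 5 from 125408812 to 125409966, fell from 750 to 568 reads. By the authors' deposited table its log2 fold change was -0.40 (SE 0.11) at an adjusted p of 0.00736. It covers 2 transfer RNA genes, n-TAtgc5 and n-TDgtc14, 83 and 302 bp from its centre. This call was lost on the 2 other scales, with recomputed adjusted p of 0.0663 and 0.0532. The start of Dhx37, whose window is printed above, stood at 609 and 592 reads.

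Ddx1, a helicase of the transfer RNA ligase complex, had the 1 peak that was higher. It is intergenic, on chromosome 12 from 13129194 to 13130323, 89.5 kb beyond the gene's end. Its mean rose from 218 to 357 reads, for which the authors' deposited table has a log2 fold change of 0.71 (SE 0.15) at an adjusted p of 0.000315. The closest annotated gene is the noncoding Gm35298 at 13 kb. After Ddx1 the next protein-coding ends are of Nbas, 139 kb away, and of the proto-oncogene Mycn, which lies on the far side, 188 kb away. Ddx1 has the most tested peaks of any helicase, 14, and the other 13 were not called, at -0.35 to 0.44 by the authors' deposited table. Its start stood at 719 and 739 reads.

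**Figure D4:**
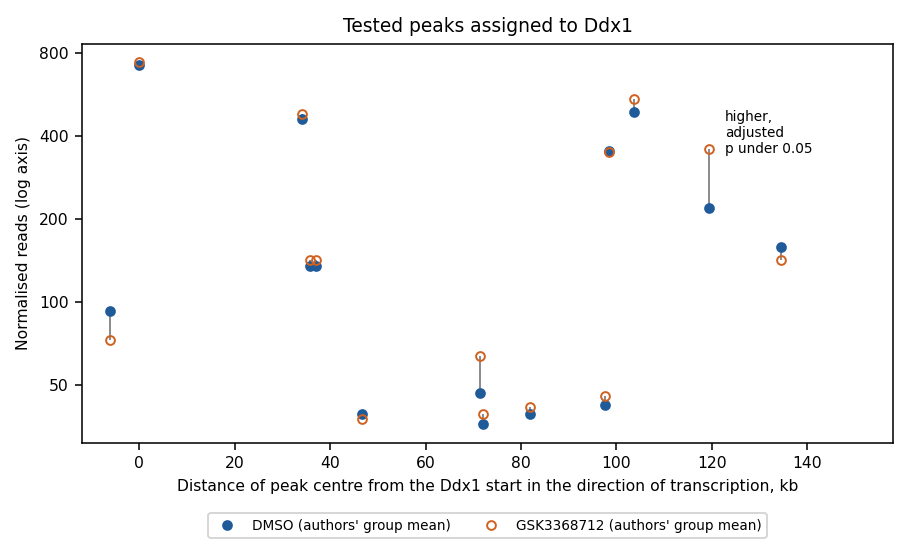
Normalised reads (log axis) in the 14 tested peaks assigned to Ddx1 against distance from the Ddx1 start in the direction of transcription, in kb; filled points are the authors' DMSO means and open points their inhibitor means. The called peak lies 119 kb past the start and goes from 218 to 357 reads, and the start peak stands at 719 and 739.

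Just outside the threshold, a weak peak inside Ddx17 stood at 136 reads in DMSO and 79.3 under the inhibitor, at an adjusted p of 0.0593 and a log2 difference of -0.78 in the authors' deposited table. A peak 48.6 kb from Dhx40 had 171 and 116 reads, a difference of -0.56 with an adjusted p of 0.121 there. Intergenic peaks 32.6 and 28.8 kb from Dhx40 had -0.31 and -0.32 in the authors' deposited table. Of the 9 tested Dhx40 peaks 6 had the lower mean under the inhibitor and 3 the higher, none called, and the start of Dhx40 stood at 556 and 568 reads. The uncalled peaks that leaned the other way at an unadjusted p under 0.05 were the shared peak of Ddx5 and Polg2 and a peak inside Ddx54. The latter had 106 and 149 reads, and the authors' deposited table gave an adjusted p of 0.28.

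**Figure D5:**
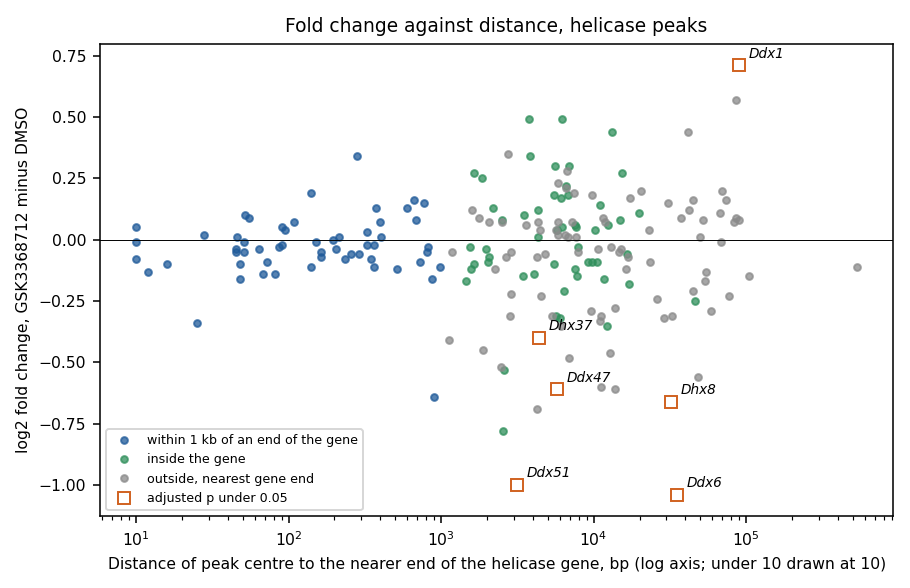
Log2 fold change, GSK3368712 minus DMSO, of tested helicase peaks against the distance in bp of the peak centre from the nearer end of its gene (log axis); colours give the position and open squares an adjusted p under 0.05 in the authors' deposited table. Called peaks lie 3.16 to 89.5 kb from a gene end and none within 1 kb.

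The helicase peaks were found in individual libraries about as often as others. The authors' peak caller had 169 of 245 helicase peaks (69.0%) in all 4 libraries, beside 67.1% of all peaks, and 51 of the 58 peaks at helicase gene ends, of which 2 were too low to be tested. Each of the 6 called peaks was present in all 4 libraries. The called differences were thus differences in level at sites with a peak in both groups.

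Genes of 2 related lists were set beside the family. The 23 other helicases, of superfamilies 1 and 2, had 6 lower (7.59%) and 0 higher peaks of 79 tested. None of 17 genes was called at its strongest end peak, nor reached an unadjusted p under 0.05. The lists are not fully separate, since the end peak of Mtrex is the same peak as that of Dhx29. The lower peaks lay in or near Helz, Eif4a2, Helz2, Tdrd9 and Ifih1, the gene of the sensor MDA5. The Ifih1 peak lies inside the gene and fell from 110 to 53.1 reads, for which the authors' deposited table has an adjusted p of 0.0072. Of 144 tested peaks of 35 helicase cofactors, such as G-patch and translation initiation proteins, 6 were lower (4.17%) and 0 higher, and 0 of 31 genes were called at the strongest end peak, with 3 at an unadjusted p under 0.05. A weaker end peak was called at Lsm14a, whose protein binds Ddx6, falling from 176 to 109 reads, and the authors' deposited table gave an adjusted p of 0.0288. These counts of 0 stand beside 1.54% of all genes, and the shares of lower peaks beside 6.09% of all tested peaks. Whether either list differs from these was not tested, and no share of all genes is given for the counts at an unadjusted p.

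As a check of the cell type, peaks at gene ends were read for marker genes. Among 8 epithelial genes Krt8 had one, at 294 and 347 reads, and Epcam, Cdh1, Krt18, Krt19, Vil1, Cdx1 and Cdx2 had none. Pmel, the gene of the antigen gp100, had one at 2798 and 2539 reads, and the other 3 melanocyte genes had none. Ptprc, the pan-leukocyte gene, had none, while 4 of 5 blood genes had one, at 41.6 to 66.7 reads in DMSO except Cd68 at 2419. Of 4 fibroblast and endothelial genes Col1a1 had one at 1574 and 1596 reads and Cdh5 at 77.2 and 75.6. Whether the marker peaks, those of Pmel and Cd68 included, also lie within 1 kb of another gene's end was not examined. A peak here thus need not mark the gene named, and gives no cell identity. The part of these markers in the helicase values was not tested.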

How the data were processed

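ATAC-seq libraries of MC38/gp100 cells, 2 in DMSO and 2 in GSK3368712, were grouped by the labels. Per the submitters' processing notes, which give no roles, the authors used DESeq2, DiffBind 2.8.0, MACS2 2.1.1.20160309, Picard 1.113 and HISAT2 2.1.0, and the build mm10. The authors' settings, their version of DESeq2 and any shift for the transposase are not stated in the sources used here. Group levels and folds were deposited by the authors as log2 normalised reads, with a p-value and an adjusted p-value, and, in other columns as deposited, the number of libraries in which each peak was called. No test across libraries was possible, so the deposited adjusted p at 0.05 was the call. Adjusted p-values recomputed over the 74791 tested peaks, all at 35.8 reads or more, were within 2% of the deposited ones. Standard errors were derived from each fold and its two-sided p under a normal distribution. Where the fold was under 0.1, the median of the 501 tested peaks nearest in level was used. The code for the derived errors and the adjustment was run on data simulated with the same normal formula. That run checks the code and cannot check the normal distribution or the errors taken from peaks of like level. Levels were turned to reads by raising 2 to the deposited value.

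Peaks were assigned with RefSeq gene ends (GRCm38.p6), without strand or exons. Assignment does not say which gene a peak regulates. Promoter windows came from RefSeq. Named genes were those with a called peak, the 5 with the smallest adjusted p among uncalled peaks, the 5 highest and lowest end folds, the 5 highest end levels, those without an end peak and the RNA sensors. Others, such as Dhx9, were named after their values were seen. The members and lists were chosen with earlier results of these data known, and the motifs after the data were seen. Python 3.11.15, pandas 2.3.3, numpy 2.4.6 and scipy 1.17.1 were used.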

Additional observations from a re-analysis of the deposited data

How the results depend on the processing

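The count of lower helicase peaks, 5, the count of higher ones, 1, and the 6 genes with a called peak stayed within 1.5 times at adjusted p thresholds of 0.01 and 0.1, with no level filter, with peaks above the median level and without peaks shared with another gene end. With peaks above the median level, Ddx6 dropped out and Dhx58 was called in its place. With at least 1 log2 unit asked, 2 peaks were lower, 0 higher and 2 genes called. With folds shifted to equal summed reads, or centred on the median of tested peaks, 2 were higher in each case and 4 lower, since Ddx5 was added and Dhx37 lost. These shifts took the share of all tested peaks called lower to 3.61% and 3.81% and of those higher to 0.829% and 0.770%. Without peaks assigned by the nearest gene end, 1 was lower, 0 higher and 1 gene called. With such peaks kept within 50 kb, 0 were higher. The same shifts turned the sign of the median folds. The end-peak median, -0.04, became 0.0394 and 0.03, and the median of all helicase peaks, -0.03, became 0.0494 and 0.04, so neither median has a direction. The end-peak median was -0.025 with a window of 500 bp and -0.02 with the mean over all end peaks of a gene. Under the other alternatives both medians moved by at most 0.01, including, for end peaks, that of a peak over a gene start, chosen after seeing the data. No paired analysis was possible because the table holds no values per library. For the same reason leaving out a library, edgeR and other normalizations from counts were not run. Depth is unknown, and the derived intervals of the end peaks reach up to 0.305 log2 either way of the fold.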
